A study of Arabidopsis thaliana with 10 samples.

Results

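The loops compared here were those found with antibodies against H3K27me3 and H3K9me2 in a ChIA-PET series from *Arabidopsis thaliana* shoots. In ChIA-PET, an antibody enriches cross-linked chromatin, neighbouring DNA ends are ligated, and the ligated ends are sequenced as paired-end tags (PETs), and a loop is a pair of regions, called anchors, joined by PETs. The H3K27me3 list held 6310 loops and the H3K9me2 list 11513 loops, which together were 17823 of the 59276 loops in the 5 lists of the series. Both lists came from wild-type Col-0 plants of 2 weeks of age, grown in long days at a constant temperature, cross-linked with EGS and formaldehyde and not otherwise treated, and the labels differ in the antibody alone. Each antibody had 2 labelled replicates, which the authors pooled into 1 list. The list names carry 3 library numbers for H3K27me3 and 2 for H3K9me2, and how these relate to the replicates is not stated. Both lists had the same minimums of 5 PETs within and 7 PETs between chromosomes. No spread between replicates can therefore be given, no test between the antibodies was possible, and every interval below is an exact or order-statistic 95% interval that covers counting error only, over loops or anchors that are not independent of each other.

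H3K27me3 is deposited by Polycomb repressive complex 2, whose catalytic subunits in *Arabidopsis* are CLF, SWN and MEA, and lies over genes that are kept silent until a certain stage or organ. H3K9me2 is deposited by KYP (SUVH4), SUVH5 and SUVH6, is maintained together with non-CG DNA methylation by CMT2 and CMT3, and covers transposons and other repeats, most of which lie around the centromeres. The 2 marks thus stand for facultative and constitutive heterochromatin.

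As a check of the labels, AG, STM, AP1 and FLC, which are well-known Polycomb targets, were all at H3K27me3 anchors. AG had 15 H3K27me3 loops and 0 H3K9me2 loops, and FLC had 11 and 0. None of 52 genes with photosystem in their product name, which are transcribed in green shoots, was at an anchor of either list. Over all protein-coding genes, 13.9% were at H3K27me3 anchors and 0.896% at H3K9me2 anchors. The 0 for H3K9me2 is thus near its share and checks nothing. The H3K27me3 list held 101711 PETs and the H3K9me2 list 111713 PETs. The number of tags in an anchor (the deposited reads lying in it) differed more, with a median of 1640 tags for H3K27me3 and 444 tags for H3K9me2, so a loop that is missing from one list was not necessarily missing from the chromatin. The H3K27me3 list had 3171 distinct anchors with a median width of 3129 bp on the 5 chromosomes, and the H3K9me2 list had 2837 with a median width of 3374 bp.

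The anchors of the lists differ in sequence, and 4 of them are shown to make this visible. Each line gives the central 240 bases of an anchor on the plus strand of TAIR10, in lower case, and capitals mark the bases that lie in a 21-base word found more than once in the 5 chromosomes. The first, chr1:13318741-13318980, is the centre of the H3K27me3 anchor with the most loops inside an H3K9me2 zone (zones are defined below). The anchor carries AT1G35830, which encodes a VQ motif-containing protein, and its central bases lie in no annotated gene. The second, chr3:14427899-14428138, is the centre of the H3K9me2 anchor with the most loops inside a zone and lies in an exon of the pseudogene AT3G42256. The third, chr5:7037059-7037298, is the centre of the H3K9me2 anchor with the most PETs on a chromosome arm, the anchor at the tip of chromosome 2 apart, and lies in an exon of the pseudogene AT5G20780. The fourth, chr2:11126-11365, is the centre of that tip anchor and lies in an exon of the pseudogene AT2G01022.
AT1G35830 anchor (H3K27me3): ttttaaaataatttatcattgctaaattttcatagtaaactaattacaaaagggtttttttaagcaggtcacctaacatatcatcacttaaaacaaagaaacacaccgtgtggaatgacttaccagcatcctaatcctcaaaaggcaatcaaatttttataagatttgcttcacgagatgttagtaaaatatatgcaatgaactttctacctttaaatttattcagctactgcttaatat
AT3G42256 anchor (H3K9me2): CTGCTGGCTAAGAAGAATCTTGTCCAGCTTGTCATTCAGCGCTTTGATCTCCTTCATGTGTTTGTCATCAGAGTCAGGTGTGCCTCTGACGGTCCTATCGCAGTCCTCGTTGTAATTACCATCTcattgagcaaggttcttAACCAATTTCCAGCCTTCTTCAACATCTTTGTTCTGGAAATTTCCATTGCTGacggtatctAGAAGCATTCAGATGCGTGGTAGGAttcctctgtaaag
AT5G20780 anchor (H3K9me2): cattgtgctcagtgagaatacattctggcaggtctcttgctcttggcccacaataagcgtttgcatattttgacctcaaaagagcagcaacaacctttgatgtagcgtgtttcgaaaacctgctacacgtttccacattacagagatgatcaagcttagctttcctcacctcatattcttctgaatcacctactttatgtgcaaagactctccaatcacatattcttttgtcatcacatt
AT2G01022 anchor (H3K9me2): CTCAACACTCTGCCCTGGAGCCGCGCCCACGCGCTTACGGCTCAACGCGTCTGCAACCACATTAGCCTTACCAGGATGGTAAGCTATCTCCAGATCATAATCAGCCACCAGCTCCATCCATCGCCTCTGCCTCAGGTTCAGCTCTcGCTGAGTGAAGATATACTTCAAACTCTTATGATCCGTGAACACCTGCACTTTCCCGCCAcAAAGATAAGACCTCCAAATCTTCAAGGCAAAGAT
Of these 240 bases, 0 were in repeated words at AT1G35830 and 201 at AT3G42256. At AT5G20780 it was 0, and at AT2G01022 it was 238.

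Over all anchors, the same measure gave a median of 1.46% of words repeated for the 3061 H3K27me3 anchors outside the H3K9me2 zones and 3.84% for the 110 inside them. For H3K9me2 the median was 40.8% for the 2711 anchors inside the zones and 14.4% for the 126 outside. The zones as a whole had 35.9% of words repeated and the rest of the genome 6.64%, which are pooled shares and not medians. Thus the H3K27me3 anchors within the zones were made of far less repeated sequence than the zones around them, while the H3K9me2 anchors on the arms had more than the arms. Base composition differed more by antibody than by place. The median GC content of H3K27me3 anchors was 34.4% outside and 34.2% inside the zones, and that of H3K9me2 anchors was 39.9% inside and 41.2% outside. The telobox AACCCTA, a motif known at Polycomb targets (searched on both strands), was in the central 300 bases of 9.34% of H3K27me3 anchors outside the zones (95% interval 8.34 to 10.4%) and of 10% of those inside (5.10 to 17.2%). It was in 6.82% (5.90 to 7.84%) of H3K9me2 anchors inside the zones, in 2.38% (0.494 to 6.80%) of those outside, and in 6.19% of all 300-base windows of the genome. The motif GAGAGA showed no such order, at 22.6% of H3K27me3 anchors outside the zones and 28.2% (20.0 to 37.6%) of those inside, and at 21.7% of H3K9me2 anchors inside the zones and 23.02% of those outside, against 24.3% of all windows.

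To find where one list gives way to the other, the anchors of both lists were ordered along each chromosome, each H3K9me2 anchor was scored 1 and each H3K27me3 anchor -1, and the stretch with the largest sum was taken as the H3K9me2 zone. The rule gives 1 zone for each chromosome, and each zone held the 1 Mb window of its chromosome with the fewest protein-coding genes. The zones ran from 12.997 to 16.8 Mb on chromosome 1, from 1.76 to 7.24 Mb on chromosome 2, from 10.9 to 16.0 Mb on chromosome 3, from 1.62 to 5.97 Mb on chromosome 4 and from 9.89 to 13.8 Mb on chromosome 5. Their lengths were 3.75 Mb, 5.48 Mb, 5.08 Mb, 4.35 Mb and 3.91 Mb, in all 22.6 Mb or 18.9% of the 5 chromosomes. The share of the chromosome was lowest on chromosome 1 (12.3%) and highest on chromosome 2 (27.8%). H3K27me3 anchors covered 1.75% of the zones and 12.7% of the rest, whereas H3K9me2 anchors covered 42.8% of the zones and 0.575% of the rest. Since the lists place the zones, these counts describe how cleanly they part and are not a test. The zones held 71.9 protein-coding genes per Mb and the rest of the genome 267.4.

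By the rule an edge lies at an H3K9me2 anchor. Among the 10 edges, the gap between the last H3K27me3 anchor of the arm and the first H3K9me2 anchor of the zone had a median of 23.6 kb. It was smallest on the right side of chromosome 1, with 2.82 kb between the pseudogene AT1G44070 (H3K9me2, 1 loop of 9 PETs) and AT1G44080, an F-box SKIP23-like gene (H3K27me3, 1 loop of 11 PETs). It was largest on the left side of chromosome 5, with 457 kb between AT5G26810 (H3K27me3, 1 loop of 7 PETs) and the pseudogene AT5G27885 (H3K9me2, 4 loops of 55 PETs). The other edge genes on the arm side were AT1G35330, AT2G04820 to AT2G04840, AT2G16710, AT3G28840, NIT2, a nitrilase gene, AT4G03610, AT4G09440 with AT4G09450, and AT5G35660. On the zone side, 9 of the 10 first H3K9me2 anchors lay on annotated pseudogenes and that of the left edge of chromosome 1 lay on no annotated gene. Of all H3K9me2 anchors in the zones 74.4% carried a pseudogene, so this is no trait of the edges. Within 500 kb outside an edge there were 2 to 24 H3K27me3 anchors (median 13.5) and 0 to 8 H3K9me2 anchors (median 1.5). Within 500 kb inside there were 0 to 11 H3K27me3 anchors (median 4) and 20 to 60 H3K9me2 anchors (median 29.5). The anchors of both lists place the edges, so these counts describe the edges and are not a test.

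**Figure D1:**
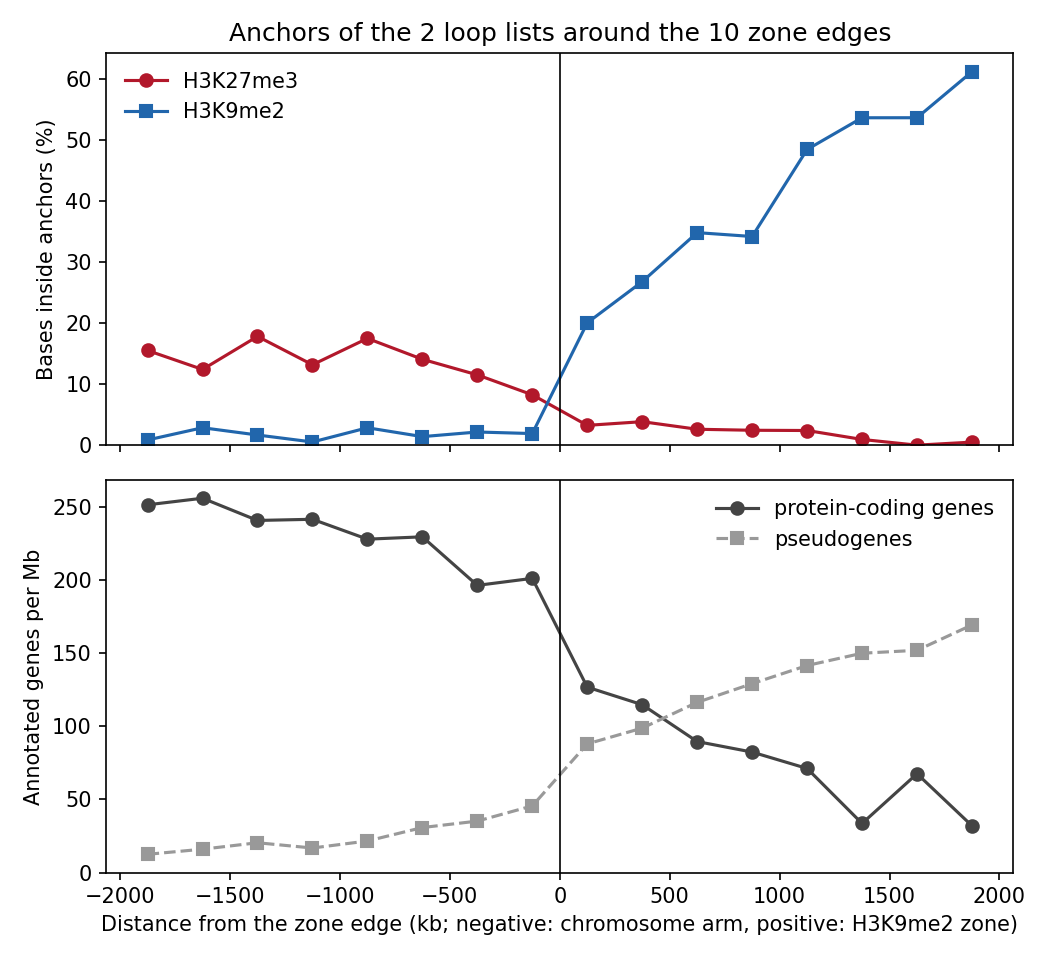
Percent of bases inside anchors of each list (top; circles H3K27me3, squares H3K9me2) and annotated genes per Mb (bottom) in 250 kb bins from the zone edge, averaged over the chromosome sides that reach each bin (6 to 10 of 10); negative distances lie on the arm. H3K27me3 coverage is 3.24% and H3K9me2 coverage 20.0% in the first bin inside the zone, and H3K9me2 coverage reaches 61.1% at 1750 to 2000 kb.

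In the plot of anchor coverage by distance from the edge, H3K27me3 coverage fell over the last bins outside the edge. H3K9me2 coverage stayed between 0.521% and 2.85% in the bins outside, without a trend. It stepped up at the edge, where the rule starts each zone at an H3K9me2 anchor, and was higher still deep inside. From 500 to 250 kb outside the edge, H3K27me3 anchors covered 11.5% of the bases and H3K9me2 anchors 2.15%. In the last 250 kb before the edge the values were 8.24% and 1.90%, and in the first 250 kb inside they were 3.24% and 20.0%. Between 1250 and 1500 kb inside the edge, H3K27me3 anchors covered 0.937% and H3K9me2 anchors 53.6%. The density of protein-coding genes changed in the same bins, with 201.2 genes per Mb in the last bin outside and 126.8 in the first bin inside. Pseudogenes numbered 45.6 and 88 per Mb in those bins.

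The lists were not fully separated. Along the 5 chromosomes the ordered anchors switched from one list to the other 269 times, and 149 of these switches lay within 1 Mb of a zone edge. The unbroken run with the most H3K27me3 anchors held 230 over 7.47 Mb of chromosome 5, and that with the most H3K9me2 anchors held 436 over 2.28 Mb of chromosome 4. Inside the zones there were 58 runs of H3K27me3 anchors, of which 32 were single anchors and 15 had 3 or more. On the arms there were 72 runs of H3K9me2 anchors, of which 37 were single and 12 had 3 or more. Within 1 Mb of an edge lay 77.6% of the H3K27me3 runs, where 44.3% of the bases of the zones lie, and 34.7% of the H3K9me2 runs, where 10.4% of the bases of the arms lie. The 2 shares of runs cannot be compared with each other, since the zones are much shorter than the arms.

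In all, 110 of 3171 H3K27me3 anchors (3.47%, 2.86 to 4.17%) lay inside an H3K9me2 zone. They numbered 17 on chromosome 1, 37 on chromosome 2, 33 on chromosome 3, 16 on chromosome 4 and 7 on chromosome 5. These anchors had a median of 2 loops, as had the H3K27me3 anchors outside, and 74.5% of them carried a protein-coding gene against 84.3% outside. Conversely, 126 of 2837 H3K9me2 anchors (4.44%, 3.71 to 5.27%) lay on the arms. These had a median of 1 loop, against 6 loops for the H3K9me2 anchors inside the zones, and 77.8% of them carried a pseudogene, against 74.4% inside. A protein-coding gene was at 19.05% of the H3K9me2 anchors on the arms and at 7.52% of those in the zones.

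The H3K27me3 anchor with the most loops inside a zone was that of AT1G35830, with 13 loops and 121 PETs, of which 4 loops spanned under 100 kb, 3 spanned 100 kb or more, 5 led to other chromosomes and 1 joined the anchor to itself. The next was an array of RNI-like (leucine-rich repeat) genes on chromosome 4 (AT4G05470, AT4G05475 and AT4G05490), with 12 loops and 213 PETs, 7 of them to other chromosomes. On chromosome 2, AT2G05510, a glycine-rich protein gene, had 11 loops and 124 PETs, and AT2G05420 with AT2G05430, genes of the TRAF-like and C19-related families, had 8 loops and 140 PETs. AT2G05435, a pseudogene, and GRP9, which encodes a glycine-rich protein, had 5 loops each. The remaining anchors of the first 10 were those of AT1G43005 to AT1G43020 (7 loops), AT3G30580 (7 loops), AGL44, a MADS-box gene also known as ANR1 (6 loops), and AT2G15325 to AT2G15330 (6 loops). All of these anchors except that of GRP9 had at least 1 loop to another chromosome.

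**Figure D2:**
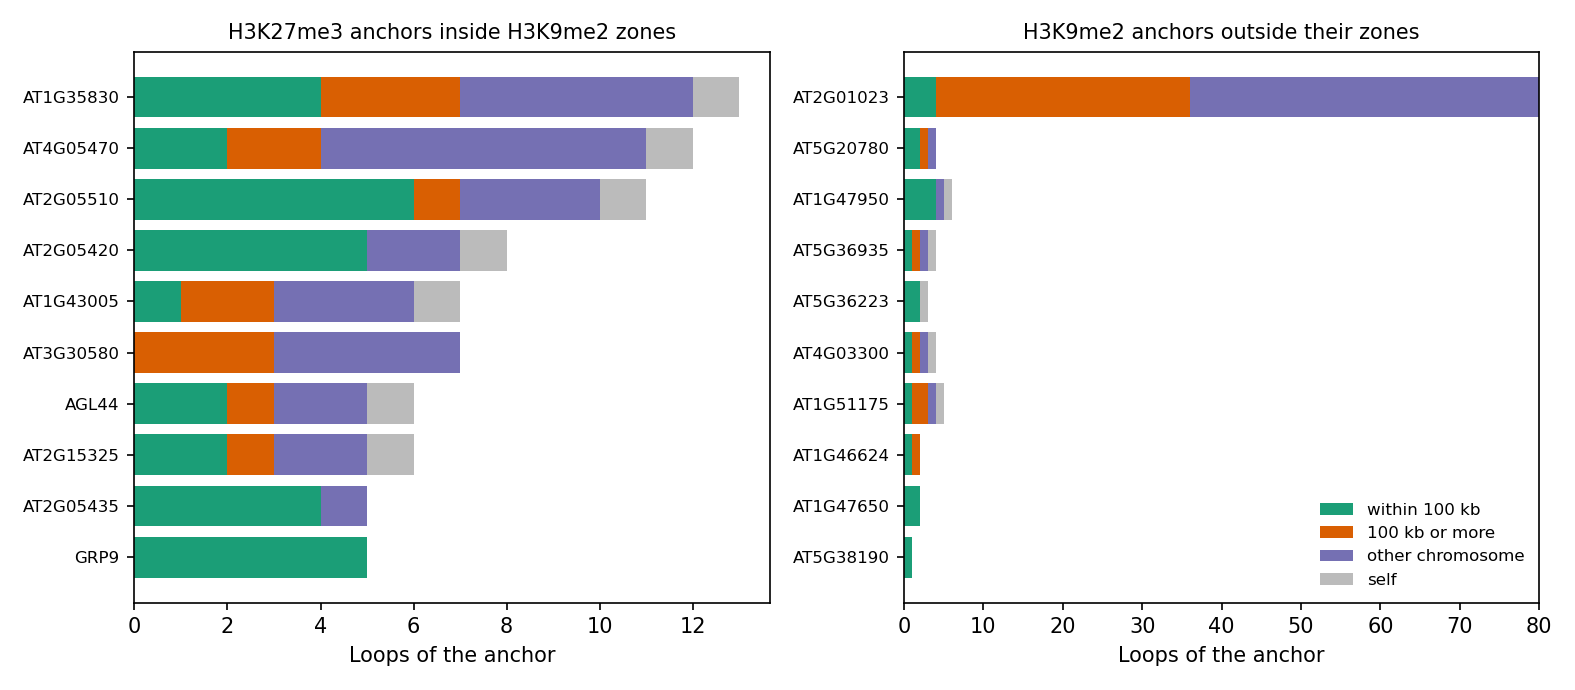
Number of loops, by kind, of the 10 H3K27me3 anchors with most loops inside H3K9me2 zones (left) and of the 10 H3K9me2 anchors with most PETs outside their zones, 1 per run of anchors (right); rows are named by the first gene of the anchor. The horizontal scales differ. AT1G35830 has 13 loops, and the anchor at the tip of chromosome 2 (AT2G01023) has 80 while the other H3K9me2 anchors shown have 6 or fewer.

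The longest run of H3K27me3 anchors in a zone lay on chromosome 2 from 1.98 to 2.03 Mb, 247 kb from the zone edge, and held 7 anchors with AT2G05400 to AT2G05540, among them GRP9. Of its 21 possible anchor pairs 15 were joined, by 240 PETs. The strongest of these loops, with 44 PETs, joined the anchor of AT2G05400 and AT2G05410 to that of AT2G05420 and AT2G05430 over 6.67 kb. A run of 5 anchors on chromosome 3 around AGL79, a MADS-box gene, and CYP702A8, a cytochrome P450 gene, had 7 of 10 pairs joined. A run of 5 on chromosome 4 around the RNI-like genes had 3 of 10. KNAT1 (BP), a homeobox gene of the shoot meristem, had 4 loops and 48 PETs within the zone of chromosome 4, where PDF2, an epidermal homeobox gene, also had 4 loops, with 51 PETs.

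Among the H3K9me2 anchors on the arms, the anchor at the tip of chromosome 2 (chr2:9288-13202) stood apart. It had 80 loops and 669 PETs, and its 8212 tags were the most of any H3K9me2 anchor, whose median was 444. It carries the short annotated gene AT2G01023 and the pseudogene AT2G01022, and 79.3% of its 21-base words occurred more than once in the genome. This tip is known to carry an array of ribosomal RNA genes. Apart from it, the most PETs were at the pseudogenes AT5G20780 (4 loops, 168 PETs), AT1G47950 (6 loops, 128 PETs), AT5G36935 (4 loops, 70 PETs), AT5G36223 (3 loops, 63 PETs), AT4G03300 (4 loops, 57 PETs), AT1G51175 (5 loops, 54 PETs), AT1G46624 (2 loops, 43 PETs) and AT1G47650 (2 loops, 38 PETs), and at AT5G38190, annotated as a myosin heavy chain-like gene (1 loop, 34 PETs). At AT5G20780, 139 of the 168 PETs were in 1 loop, which joined it to the pseudogene AT5G20750 over 7.40 kb and was the third strongest of all H3K9me2 loops within a chromosome. In the run of 5 anchors from AT5G20750 to AT5G20800 4 of 10 pairs were joined, by 178 PETs, and the run had 6 loops in all, of which 1 led to the tip anchor of chromosome 2 with 9 PETs.

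Loops within a chromosome seldom left the zone of their list. Of 4213 H3K27me3 loops, leaving out those that join an anchor to itself, 4098 had both anchors outside the H3K9me2 zones, 45 had 1 anchor inside and 70 had both inside. Thus 115 (2.73%, 2.26 to 3.27%) reached an H3K9me2 zone. Of 11396 H3K9me2 loops, 11284 had both anchors inside the zones, 40 had 1 outside and 72 had both outside, so that 112 (0.983%, 0.810 to 1.18%) reached an arm. The lists themselves placed these zones, and with pericentromeres set by gene density instead the shares were 1.31% for H3K27me3 and 11.4% for H3K9me2, so that their order turned. In both lists more of these loops lay wholly in the other zone than crossed the edge.

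**Figure D3:**
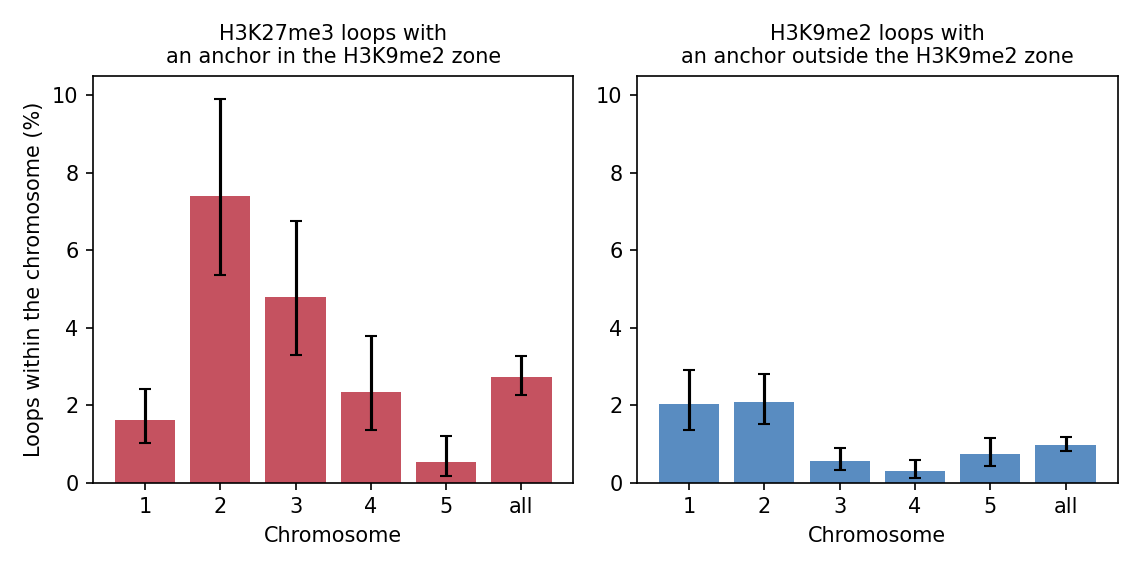
Share of loops within each chromosome that reach the zone of the other list, in percent, with exact 95% intervals (counting error only); H3K27me3 left, H3K9me2 right, "all" the 5 chromosomes together. H3K27me3 ranges between 0.520% on chromosome 5 and 7.40% on chromosome 2, and H3K9me2 between 0.303% on chromosome 4 and 2.09% on chromosome 2, where it is 1.16% without the tip anchor and with the zone placed again.

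The chromosomes differed in this share. For H3K27me3 it was 1.61% on chromosome 1, 7.40% on chromosome 2, 4.80% on chromosome 3, 2.35% on chromosome 4 and 0.520% on chromosome 5. The interval of chromosome 2 (5.36 to 9.91%) did not meet those of chromosomes 1, 4 and 5, whereas it overlapped that of chromosome 3 (3.28 to 6.74%). For H3K9me2 it was 2.02% on chromosome 1, 2.09% on chromosome 2, 0.556% on chromosome 3, 0.303% on chromosome 4 and 0.726% on chromosome 5. On chromosome 2, 36 of the 42 such loops belonged to the tip anchor. Without it, and with the zone placed again, 23 of 1975 loops reached an arm there (1.16%, 0.740 to 1.74%), a share below that of chromosome 1. The 23 are more than remained of the 42, because the zone was placed again.

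H3K27me3 anchors on opposite arms were also joined to each other. Loops that joined the left arm to the right arm, over the whole H3K9me2 zone, made up 367 of the 4213 H3K27me3 loops (8.71%, 7.88 to 9.60%) and 4 of the 11396 H3K9me2 loops (0.0351%, 0.00956 to 0.0898%). Only loops with both anchors on the arms can do so, and these numbered 4098 for H3K27me3 and 72 for H3K9me2. The zone rule puts most H3K9me2 anchors in the zones, so the second share largely follows from it. At an FDR below 0.001, 2497 of the 2569 H3K27me3 loops within a chromosome spanned under 100 kb, so most of the 367 dropped out. The median span of the 367 H3K27me3 loops was 15.8 Mb. The strongest, with 25 PETs, joined AT2G02650 to AT2G02680 with HIS1-3 (a linker histone gene), VND1 (a NAC factor of xylem vessels), AT2G18070 and EDA2 over 7.11 Mb of chromosome 2. Another, with 16 PETs, joined NAC012 with STM, a homeobox gene that maintains the shoot meristem, over 11.2 Mb, and one with 15 PETs joined FEZ, a NAC factor of root stem cells, with AP1, a floral MADS-box gene, over 16.7 Mb. Of the 932 H3K27me3 loops of 1 Mb or more, 86.6% passed over at least 1 H3K9me2 anchor. Of the 63 H3K9me2 loops of this length, 32 of which belonged to the tip anchor of chromosome 2, 90.5% passed over at least 1 H3K27me3 anchor. Other stretches of equal length were not counted, so these shares are a description and not a test. Under 100 kb, 2.73% of H3K27me3 loops and 1.30% of H3K9me2 loops enclosed an anchor of the other list.

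The 45 H3K27me3 loops that crossed an edge were long, with a median span of 7435 kb, and weak, with a median of 6 PETs. Of these, 42 spanned over 1 Mb. The strongest, of 11 PETs, spanned only 14.7 kb and joined AT1G44050, a C1 domain gene, with AT1G44080 across the right edge of chromosome 1, the edge with the smallest gap. A loop of 11 PETs joined AT3G12410 to AT3G12470 on the left arm of chromosome 3 with AT3G43110 and AT3G43120, a SAUR-like auxin-responsive gene, at 11.1 Mb. ALD1, which makes the immune signal pipecolic acid, was joined to WRKY12 by 10 PETs over 12.7 Mb of chromosome 2. The RNI-like array was joined to AT4G14260 by 10 PETs over 5.45 Mb, and LSH1, a gene of light-dependent hypocotyl growth, to AT5G23360 and AT5G23370 by 9 PETs over 2.59 Mb. The 70 H3K27me3 loops with both anchors inside a zone were short, with a median span of 9.14 kb (7.31 to 15.8 kb), and none exceeded 1 Mb.

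Of the 40 H3K9me2 loops that crossed an edge, 30 started from the tip anchor of chromosome 2 and had 5 to 10 PETs each. The strongest of these joined it to the pseudogenes AT2G05610 and AT2G10760, with 10 PETs each, and to AT2G10540 and AT2G15380, with 9 PETs each, at 2.07 to 6.69 Mb, followed by AT2G07550 with 8 PETs. The other 10 lay on chromosomes 1, 3, 4 and 5 and had 5 PETs each, the minimum of the list, such as the loop that joined AT5G20780 with the pseudogene AT5G35535 over 6.68 Mb. Without the tip anchor, and with the zones placed again, 93 of the H3K9me2 loops (0.819%) reached an arm. The 68 H3K9me2 loops that stayed on 1 side of 1 arm had a median span of 8.63 kb (7.03 to 11.7 kb).

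Loops between chromosomes made up 1290 of 6310 H3K27me3 loops (20.4%, 19.5 to 21.5%) and 50 of 11508 H3K9me2 loops on the 5 chromosomes (0.434%, 0.323 to 0.572%). Of the H3K27me3 loops, 75 (5.81%) had 1 anchor in an H3K9me2 zone and 0 had both. The strongest of the 75 joined the RNI-like array on chromosome 4 to CRC, a gene of carpel development, with 17 PETs, and other loops of this array led to SHP1, a MADS-box gene of the fruit (10 PETs), and to the ARI9 to ARI11 genes (14 PETs). AT3G30580 was joined to CUC2, an organ boundary gene, by 12 PETs and to KNAT6 by 10 PETs, and AT3G43110 with AT3G43120 to AP1 by 12 PETs and to PLT2 by 11 PETs. Of the 50 H3K9me2 loops between chromosomes, 44 had the tip anchor of chromosome 2 as an end, and 20 had 1 anchor in a zone and 3 had both. The strongest, with 26 PETs, joined the tip anchor to a stretch of chromosome 3 with no annotated gene at the anchor. Of the 80 loops of the tip anchor, 7 (8.75%) joined anchors that had any 21-base word in common with it. Such loops were also a minority among H3K9me2 loops in the zones, with 15.7% under 100 kb and 14.7% at 100 kb to 1 Mb. Whether repeated sequence bears on the loops of the tip anchor was not tested.

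The lists shared few anchors. An overlap of at least 1 bp was found for 12 of 3171 H3K27me3 anchors (0.378%, 0.196 to 0.660%) and 11 of 2837 H3K9me2 anchors (0.388%, 0.194 to 0.693%), and it covered 92 to 1381 bp, with a median of 545 bp. The largest overlap, at AT4G08868, was 53.2% of the smaller anchor. Within 1 kb of an H3K9me2 anchor there were 24 H3K27me3 anchors, and within 10 kb there were 120 (3.78%). The shared stretches lay 7 times on the arms and 5 times inside the H3K9me2 zones. The shortest 2 are shown on the plus strand with 25 bases on either side, and capitals mark the bases that belong to an anchor of both lists. The first lies in no annotated gene, between the H3K9me2 anchor of the pseudogene AT3G29578 and the H3K27me3 anchor of AT3G29580, at chr3:11394191-11394332. The second lies in a coding exon of AT1G32020, at chr1:11512563-11512853.
AT3G29578 and AT3G29580: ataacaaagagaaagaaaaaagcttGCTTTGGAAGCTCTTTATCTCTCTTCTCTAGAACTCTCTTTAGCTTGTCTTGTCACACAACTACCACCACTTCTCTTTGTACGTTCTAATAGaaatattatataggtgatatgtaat
AT1G32020: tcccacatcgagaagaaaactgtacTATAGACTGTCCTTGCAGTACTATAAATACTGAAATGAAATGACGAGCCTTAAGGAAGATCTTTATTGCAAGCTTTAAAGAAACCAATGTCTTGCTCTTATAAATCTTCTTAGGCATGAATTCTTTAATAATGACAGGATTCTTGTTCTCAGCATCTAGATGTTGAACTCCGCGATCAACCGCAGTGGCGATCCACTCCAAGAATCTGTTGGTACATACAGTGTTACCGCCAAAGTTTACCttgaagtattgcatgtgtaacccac

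In 7 of the 12 overlapping pairs the H3K9me2 anchor carried a pseudogene and in 2 it carried no annotated gene. PLT2, a root stem cell factor, had 15 H3K27me3 loops with 437 PETs, and its anchor overlapped by 1039 bp an H3K9me2 anchor on the pseudogene AT1G51175, which had 5 loops with 54 PETs. The overlap lay within an exon of the pseudogene. The PLT2 anchor was joined to WIP5 with 114 PETs over 16.9 kb in the H3K27me3 list, and the anchor of AT1G51175 to that of AT1G51172 with 29 PETs over 4.85 kb in the H3K9me2 list. AHL20, an AT-hook gene, had 8 H3K27me3 loops (79 PETs) beside an H3K9me2 anchor on the pseudogene AT4G14460 with 1 loop (12 PETs), and overlapped it by 679 bp. MIF2, a mini zinc finger gene inside the zone of chromosome 3, had 1 H3K27me3 loop of 7 PETs, which led to WIP3 on chromosome 1, and the H3K9me2 anchor of AT3G28915 beside it had 4 loops (33 PETs). GH9A4, a glycosyl hydrolase gene in the same zone, had 4 H3K27me3 loops (26 PETs), and the H3K9me2 anchor beside it, on no annotated gene, had 3 loops (30 PETs). AT4G08868, in the zone of chromosome 4, had 3 H3K27me3 loops (18 PETs), one of them to STM with 8 PETs, and the H3K9me2 anchor beside it 1 loop (8 PETs). AT2G16190 in the zone of chromosome 2 had 3 H3K27me3 loops (20 PETs) beside the pseudogenes AT2G16170 and AT2G16180, with 1 H3K9me2 loop (13 PETs). AT3G45450 had 5 H3K27me3 loops (71 PETs) beside the pseudogene AT3G45446, with 1 H3K9me2 loop (5 PETs).

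AT3G22125 and AT3G22142, overlapping genes on the left arm of chromosome 3, were the only protein-coding genes at anchors of both lists. They lay at 2 H3K27me3 anchors with 2 loops (17 PETs) and 4 loops (38 PETs) and at 1 H3K9me2 anchor with 1 loop of 5 PETs. The partners differed, since the H3K27me3 anchors were joined to neighbours at 3.58 to 13.04 kb, CWLP (a cell wall protein gene) among them, and to JRG21 at 12959 kb, while the H3K9me2 anchor was joined to the pseudogene AT3G42230 at 6.58 Mb. In 1 case a loop of each list joined the same 2 places. On chromosome 1, an H3K27me3 anchor with no assigned gene was joined to that of AT1G32020 and AT1G32030 with 45 PETs over 16.0 kb, and the H3K9me2 anchors that overlap them, on the pseudogene AT1G31993 and on AT1G32010, with 10 PETs over 5.57 kb. The overlaps were 374 bp and 241 bp.

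The median span of loops within a chromosome was 24.3 kb for H3K27me3 (22.6 to 26.01 kb) and 23.9 kb for H3K9me2 (23.2 to 24.6 kb), and these intervals overlap. The medians depended on the selection of loops, with 11.6 kb for H3K27me3 and 22.9 kb for H3K9me2 at an FDR below 0.001, and 18.96 and 12.7 kb among the 3000 strongest loops of each list. The plot of spans shows that the lists differed on either side of the median. The lower and upper quartiles were 9.62 and 260.4 kb for H3K27me3 and 11.7 and 59.4 kb for H3K9me2. Loops from 100 kb to 1 Mb made up 6.50% of the H3K27me3 loops and 14.5% of the H3K9me2 loops, while those of 1 Mb or more made up 22.1% (20.9 to 23.4%) and 0.553% (0.425 to 0.707%). Of the 63 H3K9me2 loops of this length, 32 belonged to the tip anchor of chromosome 2. The excess of long H3K27me3 loops depended on the FDR. Under 100 kb lay 3007 of all 4213 H3K27me3 loops, but 2497 of the 2569 with an FDR below 0.001. For H3K9me2 it was 9686 of 11396 and 9670 of 11077, so the order for loops of 100 kb or more turned. The longest loops spanned 28.1 Mb (H3K27me3) and 17.4 Mb (H3K9me2), both on chromosome 1. Across chromosomes the median was between 19.9 and 28.1 kb for H3K27me3 and between 20.9 and 25.7 kb for H3K9me2, and in both lists it was lowest on chromosome 2.

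**Figure D4:**
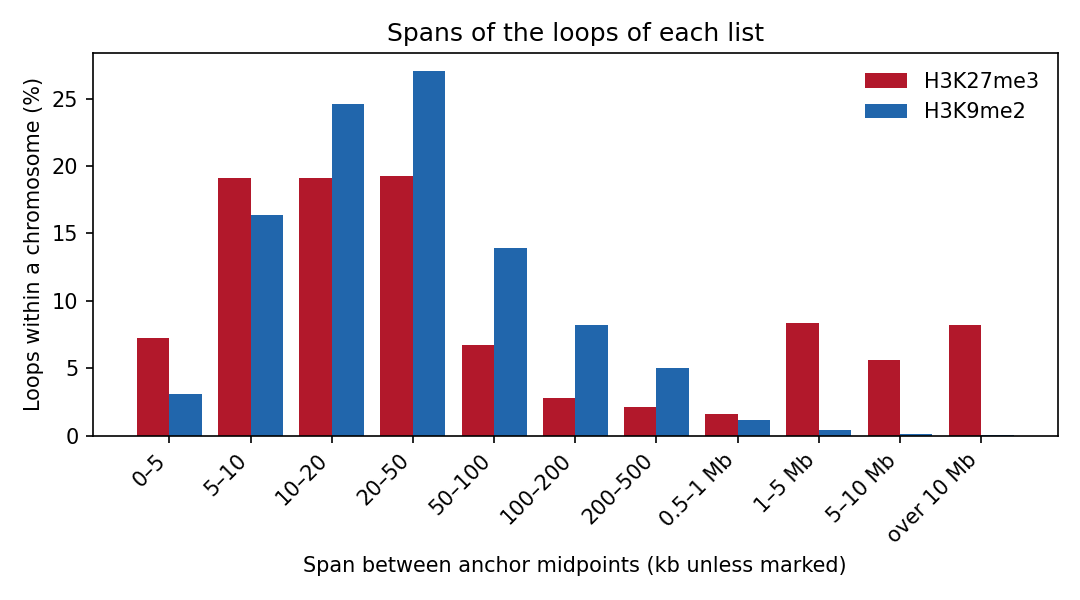
Share of loops within a chromosome, in percent of each list, by span between anchor midpoints; H3K27me3 left bars, H3K9me2 right bars, loops joining an anchor to itself left out (n = 4213 and 11396). H3K9me2 has 27.04% of its loops at 20 to 50 kb against 19.2% for H3K27me3, and H3K27me3 has 8.21% of its loops over 10 Mb against 0.0176% for H3K9me2.

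The strength of loops changed with span in both lists. The median was 12 PETs for H3K27me3 and 11 PETs for H3K9me2 at 5 to 10 kb, 8 and 7 PETs at 20 to 50 kb, and 6 and 5 PETs at 1 to 5 Mb. Per 100 tags of the smaller anchor, the median at 5 to 10 kb was 1.57 PETs for H3K27me3 and 2.99 PETs for H3K9me2, and at 1 to 5 Mb it was 0.301 and 0.664 PETs. Thus the long H3K27me3 loops were close to the PET minimum at anchors with many tags. The 5 strongest H3K27me3 loops all lay on the arms. Of these, 485 PETs joined CYP705A1, PEN1 and CYP705A2 with CYP705A3, BARS1 and CYP705A4 (triterpene synthase and P450 genes) over 25.8 kb, 360 PETs joined CYP71A16 with MRN1 of the marneral cluster over 17.3 kb, 304 PETs joined neighbouring arrays of cysteine-rich repeat genes (AT3G21940 to AT3G22050) over 21.6 kb, and 257 PETs joined CLE4 and CLE7 with CLE5 and CLE6, genes of signalling peptides, over 10.7 kb. The strongest H3K9me2 loop, with 174 PETs over 30.5 kb, lay inside the zone of chromosome 1 and joined a stretch with no annotated gene to the pseudogene AT1G38710.

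The anchors themselves were cut differently in the 2 lists, which bears on the local density. Of 2832 gaps between neighbouring H3K9me2 anchors, 1941 (68.5%) were 0 bp, so that one anchor ended where the next began, and 0 of 3166 were 0 bp in the H3K27me3 list (0 to 0.116%). The 2837 H3K9me2 anchors thus formed 896 unbroken blocks. Within their own zones there were 31.7 anchors per Mb for H3K27me3 and 120.1 for H3K9me2. An H3K27me3 anchor had a median of 7 others of its list within 100 kb and an H3K9me2 anchor 32. Loops under 100 kb numbered 30.4 per Mb (24.3 to 34.9 across chromosomes) for H3K27me3 on the arms and 426.3 per Mb (305.8 to 527.9) for H3K9me2 in the zones. The rule places each zone where H3K9me2 anchors most outnumber H3K27me3 anchors, so these densities are a description and not a test. A loop under 100 kb was lacking at 385 of the 3061 H3K27me3 anchors on the arms (12.6%) and at 10 of the 2711 H3K9me2 anchors in the zones (0.369%).

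The number of loops per anchor, with the anchors as deposited, differed as well. The median was 2 loops for H3K27me3 and 5 for H3K9me2, and 33.3% of H3K27me3 anchors and 15.8% of H3K9me2 anchors had a single loop. At least 20 loops were found at 15 H3K27me3 anchors (0.473%) and at 267 H3K9me2 anchors (9.41%). The H3K27me3 anchors with the most loops on each chromosome were those of TCP12, a bud outgrowth factor, with AT1G68810 (23 loops), of the RALFL10 to RALFL13 peptide genes with SHT (21 loops), of the cysteine-rich repeat gene array AT3G21940 to AT3G22000 (21 loops), of the thioredoxin gene array AT4G15650 to AT4G15715 (27 loops), and of AT5G22150 to AT5G22200 (20 loops). All of them lay on the arms and each had 5 to 11 loops to other chromosomes. Those of H3K9me2 were the pseudogenes AT1G42350 (59 loops), AT3G42256 (68 loops), AT4G06556 (64 loops) and AT5G32825 (67 loops), all in the zones and with 0 loops to other chromosomes, and the tip anchor of chromosome 2. The 100 kb window with the most loops under 100 kb had 40 for H3K27me3, on chromosome 5 with AT5G37920 to AT5G38090, and 231 for H3K9me2, on chromosome 3 at 13.9 to 14 Mb.

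The share of anchor pairs that were joined was counted next. A region is an anchor only where it has a loop, and the share was higher in the zone of the other list, where anchors were sparse. Of all pairs under 100 kb apart, 3007 of 11494 (26.2%, 25.4 to 26.98%) were joined in the H3K27me3 list and 9686 of 41801 (23.2%, 22.8 to 23.6%) in the H3K9me2 list. With the distance held, the order changed. In their own zones, pairs under 10 kb apart were joined in 71.8% (69.5 to 74.1%) of cases for H3K27me3 and 46.7% (45.3 to 48.2%) for H3K9me2. At 10 to 20 kb the shares were 58.5% and 58.9%, with overlapping intervals, and at 20 to 50 kb they were 23.1% and 24.3%, again overlapping. H3K9me2 was higher beyond that, with 5.56% for H3K27me3 and 8.06% for H3K9me2 at 50 to 100 kb and 1.17% and 2.41% at 100 to 200 kb. From 1 to 5 Mb, 0.118% (0.106 to 0.131%) of the H3K27me3 pairs and 0.00442% (0.00262 to 0.00698%) of the H3K9me2 pairs were joined. The shares under 100 kb varied little between chromosomes, from 23.6% to 28.3% for H3K27me3 and from 22.2% to 25.5% for H3K9me2.

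**Figure D5:**
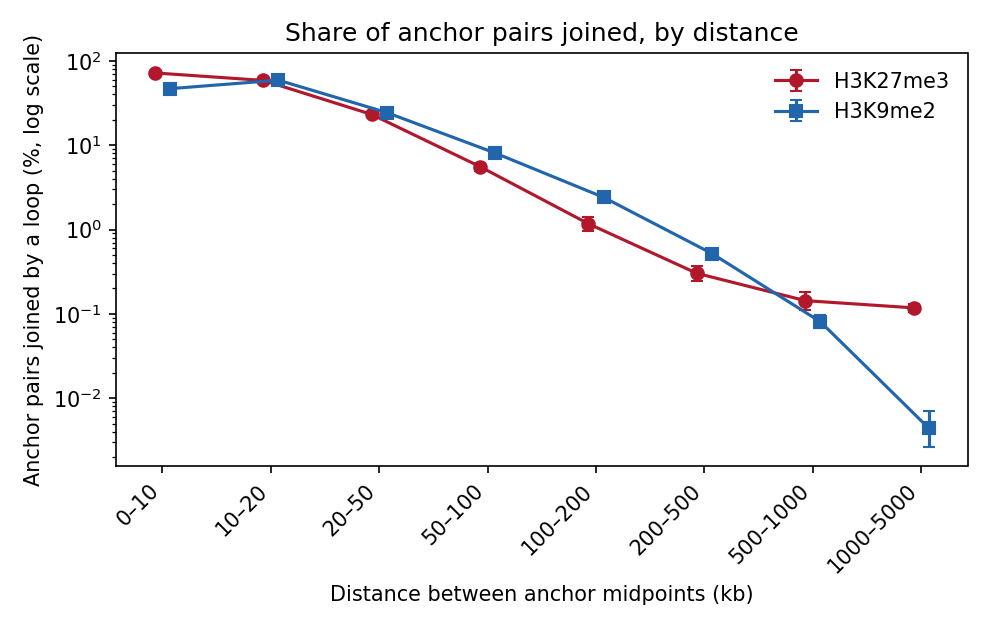
Share of anchor pairs joined by a loop (percent, log scale) by distance between anchor midpoints, for H3K27me3 anchors on the arms (circles) and H3K9me2 anchors in the zones (squares), with exact 95% intervals (counting error only; pairs share anchors). H3K27me3 starts at 71.8% under 10 kb and levels at 0.118% at 1 to 5 Mb, and H3K9me2 starts at 46.7% and ends at 0.00442%.

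This comparison rested on how anchors were counted. When abutting anchors were merged into blocks, 43.0% (41.2 to 44.8%) of the H3K9me2 pairs under 100 kb were joined and 26.2% of the H3K27me3 pairs, and the median H3K9me2 span became 63.7 kb. With the 3000 strongest loops of each list the shares were 29.5% for H3K27me3 and 14.8% for H3K9me2. The local density of joined pairs therefore had no order between the lists that held under each way of counting. In the zone of the other list, where anchors are scarce, 40.8% (33.3 to 48.6%) of 169 H3K27me3 pairs and 59.2% (49.1 to 68.8%) of 103 H3K9me2 pairs under 100 kb were joined. Of the H3K27me3 loops under 100 kb, 46.1% of connected triples of anchors were closed into triangles, and 46.8% for H3K9me2. The 3007 H3K27me3 loops fell into 626 connected groups of at most 27 anchors, and the 9686 H3K9me2 loops into 127 groups of at most 235.

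Genes were assigned to an anchor when at least 0.5 of the gene with 1 kb before its start lay in the anchor, or at least 0.5 of the anchor lay in that stretch. Over the genome, 3812 of 27444 protein-coding genes (13.9%) were at H3K27me3 anchors and 246 (0.896%) at H3K9me2 anchors, with 2 at both. Inside the zones, 102 of 1623 protein-coding genes (6.28%, 5.15 to 7.58%) were at H3K27me3 anchors and 218 (13.4%, 11.8 to 15.2%) at H3K9me2 anchors, with 0 at both, and the other 1303 were at neither. Outside, the shares were 14.4% and 0.108%. For pseudogenes the order was the opposite on the whole genome, with 2.17% of 3917 at H3K27me3 anchors and 54.5% at H3K9me2 anchors. Of the 3007 pseudogenes inside the zones, 12 (0.399%) were at H3K27me3 anchors and 2034 (67.6%) at H3K9me2 anchors. Outside the zones it was 8.02% (6.34 to 9.98%) and 10.9% (8.93 to 13.1%) of 910, with overlapping intervals.

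Gene families were therefore read against 13.9% and 0.896%. The counts at H3K9me2 anchors, 0 to 3 genes for each family, are near the second share and are not a result about the families. Of the transcription factor families, 62 of 123 MYB domain genes (50.4%) were at H3K27me3 anchors and 0 at H3K9me2 anchors. The counts were 30 of 72 WRKY genes and 0, 49 of 133 bHLH genes and 0, 36 of 105 NAC domain genes and 0, 65 of 208 homeobox genes and 0, and 36 of 120 MADS-box genes and 0. Of 653 F-box genes, which encode substrate receptors of ubiquitin ligases, 219 (33.5%) were at H3K27me3 anchors and 3 (0.459%) at H3K9me2 anchors. Within the zones 7 of 38 F-box genes were at H3K27me3 anchors, among them AT2G16220 and AT2G14710, and 2 at H3K9me2 anchors (over all protein-coding genes in the zones 6.28% and 13.4%), AT3G42770 (14 loops, 145 PETs) and AT4G05080 (1 loop, 16 PETs). Of the defensin-like genes, 38 of 195 were at H3K27me3 anchors and 2 at H3K9me2 anchors, AT3G33187 (23 loops, 223 PETs) and AT2G06166 (11 loops, 81 PETs). Cytochrome P450 genes numbered 79 of 248 and 0, self-incompatibility genes 21 of 67 and 0, NBS-LRR genes 17 of 141 and 1, receptor-like kinase genes 14 of 148 and 0, and histone genes 3 of 51 and 0. The 12.1% of NBS-LRR genes at H3K27me3 anchors is near 13.9%.

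A list of genes was chosen for a link to DNA methylation or H3K9me2. RPP7 was not matched in the annotation by symbol, and the other 15 were. Of these 15, 5 (33.3%) were at H3K27me3 anchors and 0 at H3K9me2 anchors. Over all protein-coding genes the shares were 13.9% and 0.896%, so the 0 is near the second share. The 5 were MEA and PHE1, which are imprinted in the endosperm (4 loops and 24 PETs, and 4 loops and 43 PETs), and the homeobox genes HDG3 (6 loops, 75 PETs), HDG8 (3 loops, 31 PETs) and HDG9 (2 loops, 43 PETs). FWA and SDC, which carry silent methylated repeats at their start, were at no anchor of either list, nor was QQS, which lies in the zone of chromosome 3. Of the writers, readers and erasers of H3K27me3, 2 of 15 were at H3K27me3 anchors, MEA and EMF1 (3 loops, 61 PETs), and 0 at H3K9me2 anchors, which is near the shares over all protein-coding genes (13.9% and 0.896%). JMJ13, BMI1B and BMI1C were not matched in the annotation by symbol. Of the 15 writers and partners of H3K9me2, 0 were at an anchor of either list (over all protein-coding genes 13.9% and 0.896%). DCL3, a Dicer of the RNA-directed DNA methylation pathway, is among them and lies inside the zone of chromosome 3.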

How the data were processed

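ChIA-PET was made from shoots with antibodies against H3K27me3 and H3K9me2, 2 labelled replicates each. The authors called ChIP-seq peaks as anchors, counted ligated pairs between them with the third version of ChIA-PET Tool and pooled the replicates. The deposited lists give anchor coordinates (TAIR10), PET counts and tag counts per anchor, distances, and a p-value, an FDR and their −log10, which were used here only as a filter. The aligner settings are not given in the sources used here. Loops had at least 5 PETs within and 7 PETs between chromosomes and an FDR under 0.05. The mark that a loop carries was taken from its list. Loops that touch the mitochondrial genome were not compared.

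Zones, crossings, overlaps, spans (between anchor midpoints, loops of an anchor with itself left out) and joined pairs were computed with Python 3.11.15, numpy 2.4.6, pandas 2.3.3 and scipy 1.17.1, and drawn with matplotlib 3.10.9. The scripts were checked on simulated data. Genes and pseudogenes came from RefSeq (TAIR10.1), and a gene was at an anchor where at least 0.5 of the anchor, or of the gene with 1 kb before its start, was covered. Intervals are exact Clopper-Pearson or order-statistic 95% intervals. Without replicates in the lists there was no test.

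Genes were named at anchors shared by the lists, at the 10 anchors of each list that stood out in the other zone, at zone edges, at the anchor with most loops per chromosome, at the 5 strongest crossing loops and in gene lists. Genes of loops between arms or chromosomes, of the strongest loops and of the runs of anchors were chosen after their values were seen. The members and lists were chosen with earlier results of these data known. Alternatives were a PET minimum of 10, an FDR below 0.001, 3000 loops of each list, other zone rules, other overlaps and spans, and leaving out chromosome 2.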

Additional observations from a re-analysis of the deposited data

Results flagged for a closer look

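The H3K9me2 list held 5 loops with an anchor on the mitochondrial genome, with 45 PETs in all and 5 to 11 PETs each, and the H3K27me3 list held 0. They were singled out because they lie outside the comparison, which used the 5 nuclear chromosomes. Of the 5, 2 joined mitochondrial anchors to each other and 3 joined one to chromosome 2. The source of these loops was not tested.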

How the results depend on the processing

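Of 52 alternative values, 17 stayed within the counting interval and 35 moved, and the cause of the moves was not tested. With a PET minimum of 10, the zones were 22.7 Mb, 1.12% of H3K27me3 loops reached the other zone, spans were 14.4 kb (H3K27me3) and 13.3 kb (H3K9me2), and 33.2% and 15.3% of pairs were joined. With an FDR below 0.001, the zones were 22.8 Mb, 0.695% of H3K9me2 loops reached an arm and spans were 11.6 and 22.9 kb. Under 100 kb then lay 2497 of 2569 H3K27me3 loops and 9670 of 11077 H3K9me2 loops, so most long H3K27me3 loops dropped out. With 3000 loops each, the values were 21.8 Mb, 1.6% of H3K27me3 loops reaching, 0.120% of anchors shared, 18.96 and 12.7 kb, and 29.5% and 14.8% of pairs. Without chromosome 2 they were 17.4 Mb, 2.13% and 0.725% reaching, and 24.8 kb for H3K9me2. With pericentromeres set by gene density the zones were 16 Mb, and 1.31% and 11.4% reached the other zone, so the order between the lists turned. With anchors scored by their loops the zones were 22.3 Mb and 2.23% of H3K27me3 loops reached them. Shared H3K27me3 anchors were 0.0315% when the overlap had to reach 0.5 of the smaller anchor and 0.757% within 1 kb. Spans between facing ends were 17.9 and 19.5 kb, and with loops of an anchor with itself the H3K27me3 span was 16.3 kb. Pairs 20 to 100 kb apart were joined in 12.7% and 14.4% of cases. Merging abutting anchors, chosen after seeing the data as was leaving out the tip anchor, gave 63.7 kb and 43.0% for H3K9me2. No paired analysis was possible because each list pools its replicates, and for the same reason no replicate could be left out. The H3K9me2 anchors held fewer tags, which limits what its missing loops show.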
